A study of Arabidopsis thaliana with 6 samples.

Results

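The aquaporin family of *Arabidopsis thaliana* was examined in whole seedlings of a wild type and of a gbpl3 mutant. Aquaporins are membrane channels, assembled as tetramers in which each subunit forms its own pore, that let water and in some cases small solutes such as ammonia, urea, boric acid, glycerol or hydrogen peroxide cross a membrane down their gradient. Plants sort them into plasma membrane intrinsic proteins (PIP), tonoplast intrinsic proteins (TIP), which sit in the membrane of the vacuole, nodulin 26-like intrinsic proteins (NIP) and small basic intrinsic proteins (SIP), which are found in the endoplasmic reticulum. In roots and leaves PIPs and TIPs set much of the conductance of cells to water, while several NIPs carry metalloids. All 35 genes that encode them were taken by gene identifier from a count table of 32833 genes. The rule itself used no measured value, although the family was picked with earlier results of these data known. They comprise 13 PIP, 10 TIP, 9 NIP and 3 SIP genes, written here with a hyphen as in UniProt (TIP2-3 for TIP2;3).

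Messenger RNA was sequenced from 2 genotypes with 3 libraries each. The wild type is Col-0, and the mutant carries a defect in GBPL3, a guanylate-binding-like protein that the title of the series places in the nuclear basket. Seedlings of both genotypes were 7 days old, untreated and grown on 1/2 MS medium with 1% sucrose. The type of gbpl3 mutation is not given in the labels, and the genotype label carries a different number for each mutant library, so the numbers were read as replicates because the design speaks of triplicates. Whether the 3 libraries derive from independent plantings is not stated, so every p-value reflects library-to-library spread that could be technical only. GBPL3 (AT5G46070, matched from background knowledge) stood at 68.9, 67.9 and 66.0 CPM in Col-0 against 14.8, 18.8 and 15.6 in gbpl3, which is 4.11-fold lower. CPM are counts relative to library size, here also scaled for composition. Library totals ran from 9530643 to 12911891 counts, and 3 counts corresponded to 0.232 to 0.315 CPM. Markers of green tissue summed to 51216 CPM or more in every library and all 18 root tissue markers had counts.

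Of the 35 aquaporin genes, 31 passed the filter on low counts. In gbpl3 seedlings 5 of these were higher, 7 were lower and 19 were not called, by edgeR's quasi-likelihood test with an adjusted p under 0.05 over all genes tested. Thus 38.7% of the tested members were called, beside 10.7% of all 20677 genes tested, of which 6.06% were higher and 4.69% lower. The family's median log2 fold change was -0.02 and that of all genes -0.00345. The falls were those of TIP1-1, TIP2-2, TIP2-3, PIP1-1, PIP2-2, PIP2-3 and PIP2-4, and the rises those of TIP3-1, TIP4-1, NIP1-1, NIP1-2 and PIP2-6. Falls of at least 2-fold were found in 4 of the 31 tested members, TIP2-3, PIP2-3, PIP2-4 and TIP2-2, beside 0.711% of all genes tested. The libraries of the genotypes did not overlap for 14 of the 31 members, beside 28.1% of all genes tested. Members are separate genes and not replicates of a condition, and none of the shares above has a test of its own. The shares of all genes were not matched to the members for count level. TIP3-1, among the 5 higher, passed the count filter through its gbpl3 counts, where it is high.

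**Figure D1:**
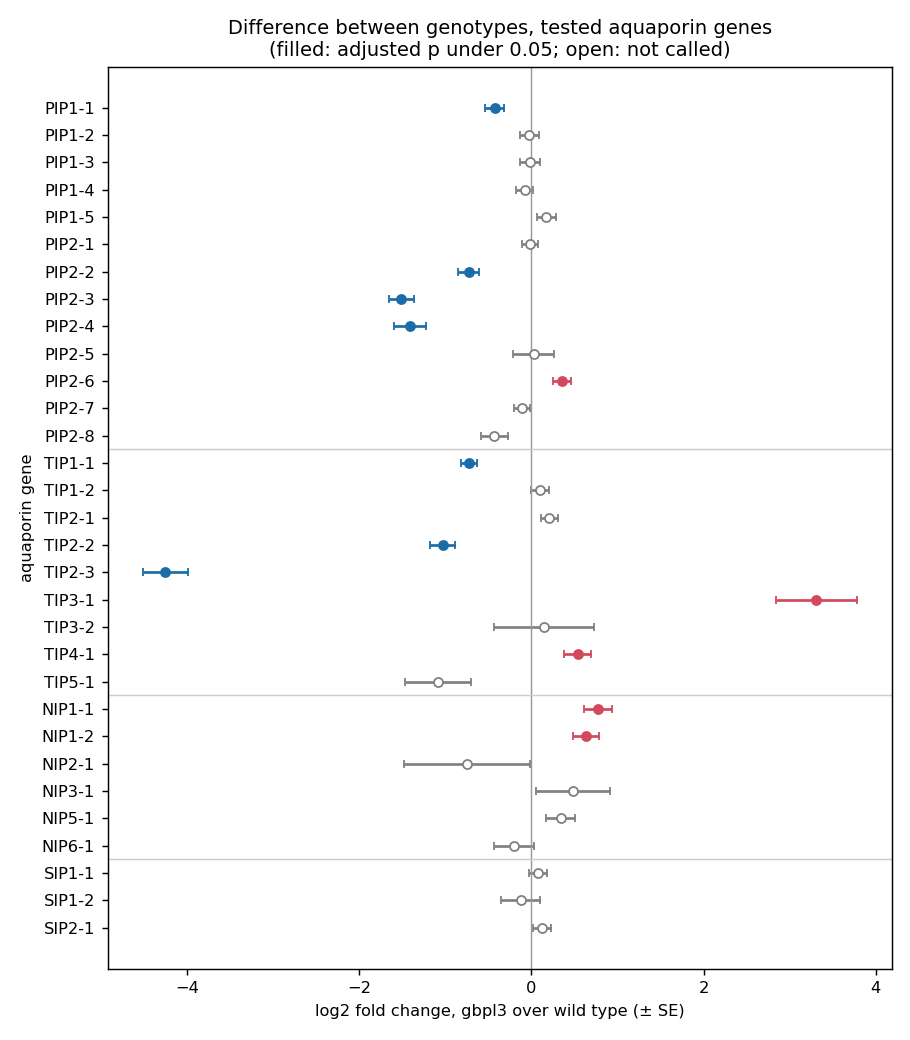
Log2 fold change of gbpl3 over wild type (x axis, points with SE as bars) for the 31 tested aquaporin genes (y axis), fitted over 3 libraries per genotype, with filled points for an adjusted p under 0.05. TIP2-3 lies farthest to the left at -4.25 and TIP3-1 farthest to the right at 3.31.

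Transcript levels of the family spanned over 3 orders of magnitude once counts were divided by exon length. The 8 most abundant genes in wild type, as CPM per kilobase of exon, were TIP1-2 at 1145.5 ± 131.7, TIP2-1 at 563 ± 49, PIP1-2 at 478 ± 68.8, TIP1-1 at 456 ± 35.5, PIP2-7 at 355 ± 5.83, PIP2-1 at 310.1 ± 19.5, PIP1-3 at 241 ± 34.6 and PIP1-1 at 203 ± 26.9 (mean ± SD, n = 3). Within this order the mean ± SD ranges overlapped for TIP2-1 and PIP1-2, for PIP1-2 and TIP1-1 and for PIP1-3 and PIP1-1, and not for the other neighbours. Together these 8 genes made up 77.6% of the family's summed level in wild type and 80.3% in gbpl3, and TIP1-2 alone made up 23.7% and 27.1%. PIP2-2, TIP2-2 and TIP2-3, which fell, ranked 9, 10 and 15 of the 35. The lowest 8 were TIP1-3, NIP4-1, NIP7-1, NIP4-2, NIP2-1, TIP3-1, TIP3-2 and NIP3-1.

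**Figure D2:**
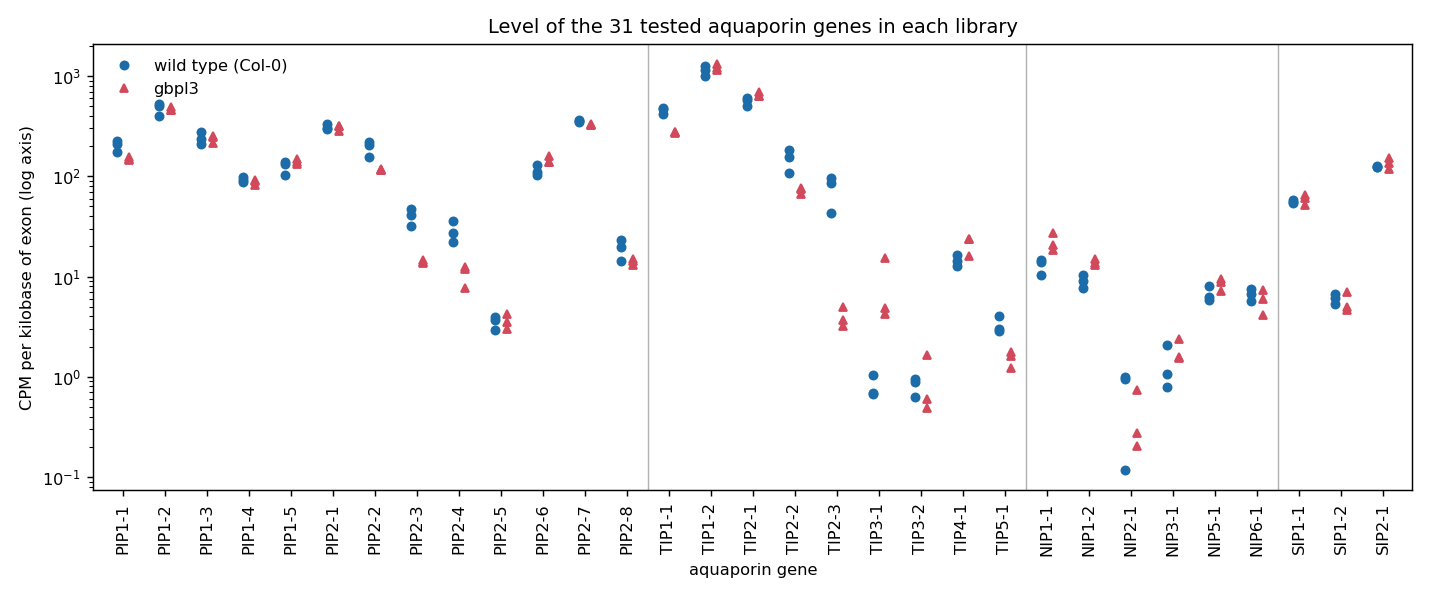
CPM per kilobase of exon (y axis, log axis) of the 31 tested aquaporin genes (x axis, ordered by subfamily), with a point for each of 3 wild-type and 3 gbpl3 libraries. TIP1-2 is highest in both genotypes, and the gbpl3 points of TIP2-3 lie far below the wild-type points.

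A hallmark of the fold is a pair of asparagine-proline-alanine (NPA) boxes that meet in the middle of the pore. All 13 PIP and all 10 TIP genes encode 2 such boxes in frame, as do 4 of 9 NIP genes, while NIP1-1, NIP1-2, NIP6-1 and NIP7-1 and the 3 SIP genes encode 1 and NIP5-1 encodes none. The coding stretches around the first box are shown for members on which the results turn, with the 9 bases of the box in capitals, from the TAIR10.1 genome.
TIP2-3: ggtcaccttAACCCAGCCgtgactctt
TIP2-2: ggacaccttAACCCCGCCgtgacactc
TIP1-1: ggacacgttAACCCTGCCgtcactttc
PIP2-2: ggtcacataAACCCTGCGgtgacgttt
PIP2-3: ggtcacataAACCCTGCGgtgacgttt
PIP2-4: ggtcatataAATCCGGCTgtgacggtg
NIP1-1: gctcatatcAATCCGGCCgttaccatt
The stretches of PIP2-2 and PIP2-3 are identical, and those of TIP2-2 and TIP2-3 are not. The boxes do not separate members that fell from members that did not, since every PIP and TIP gene has both.

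The TIP2 class showed the widest range of differences among close relatives. TIP2-3 (AT5G47450) lies on the minus strand of chromosome 5 from 19248249 to 19249622 and has 2 exons. Its product carries water and ammonia across the tonoplast and is known mainly from roots. TIP2-3 stood at 49.9, 112 and 101 CPM in Col-0 replicates 1 to 3 and at 5.78, 4.33 and 3.72 CPM in gbpl3 replicates 1 to 3. Every gbpl3 library was thus far below the lowest wild-type library, which was replicate 1. It fell 19.0-fold (log2 fold change -4.25 with SE 0.26, adjusted p = 6.17e-09), and with any library left out the log2 value stayed between -4.53 and -4.03. Wild-type replicates were less alike for TIP2-3 than for any other member with a wild-type mean above 2 CPM, with a coefficient of variation of 37.9%.

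TIP2-2 (AT4G17340), on chromosome 4 from 9698940 to 9700472 and also a root-enriched tonoplast channel, moved in the same direction by less. It stood at 147, 249 and 208 CPM in Col-0 against 102, 90.3 and 104 in gbpl3. The genotypes did not overlap, and replicate 1 was again the lowest in wild type (log2 fold change -1.03 with SE 0.14, or 2.04-fold lower, adjusted p = 0.00015). TIP2-1 (AT3G16240), also called delta-TIP and known mainly from shoots, did not fall. It stood at 604, 716 and 689 CPM in Col-0 against 753, 750.1 and 819 in gbpl3. All gbpl3 libraries were above all wild-type libraries, but the difference did not pass the test (log2 fold change 0.21, SE 0.10, adjusted p = 0.215). TIP2-1 shares 46 exon bases with AT3G03265 and 120 with AT3G16250 on the opposite strand. The strand setting of the counting is not given, so whether their reads were told apart there is not known. Neither neighbour was called, at log2 fold changes of 0.22 and 0.24.

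Reads of TIP2-2 and TIP2-3 can be separated at the sequence level. Their coding sequences are 81.5% identical, the longest identical run is 26 bases, and they share no window of 50 bases. The stretch in which they differ most is shown for both, coding bases 693 to 752, with the 27 differing bases in capitals.
TIP2-2: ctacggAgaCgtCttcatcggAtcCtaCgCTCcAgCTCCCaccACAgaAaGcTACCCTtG
TIP2-3: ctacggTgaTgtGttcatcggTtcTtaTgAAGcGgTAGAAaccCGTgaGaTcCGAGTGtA
Within a library, TIP2-2 exceeded TIP2-3 by 1.25 ± 0.27 on the log2 scale in wild type and by 4.44 ± 0.33 in gbpl3 (SD, n = 3).

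The promoters of the TIP2 genes are printed because these close relatives differed so widely. Each line gives the 250 bases before the annotated start, 5′ to 3′ on the gene's strand, from TAIR10.1 at chr3:5505110-5505359 (plus) for TIP2-1, chr4:9698690-9698939 (plus) for TIP2-2 and chr5:19249623-19249872 (minus) for TIP2-3.
TIP2-1: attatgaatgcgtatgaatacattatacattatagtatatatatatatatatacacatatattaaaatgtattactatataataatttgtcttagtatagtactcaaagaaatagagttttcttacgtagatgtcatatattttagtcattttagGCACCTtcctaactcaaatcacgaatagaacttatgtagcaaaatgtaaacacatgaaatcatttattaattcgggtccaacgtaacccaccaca
TIP2-2: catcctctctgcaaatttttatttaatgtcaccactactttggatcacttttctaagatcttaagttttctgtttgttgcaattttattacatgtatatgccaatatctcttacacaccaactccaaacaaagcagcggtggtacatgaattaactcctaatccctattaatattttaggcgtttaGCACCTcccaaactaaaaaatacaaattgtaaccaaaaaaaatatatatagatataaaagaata
TIP2-3: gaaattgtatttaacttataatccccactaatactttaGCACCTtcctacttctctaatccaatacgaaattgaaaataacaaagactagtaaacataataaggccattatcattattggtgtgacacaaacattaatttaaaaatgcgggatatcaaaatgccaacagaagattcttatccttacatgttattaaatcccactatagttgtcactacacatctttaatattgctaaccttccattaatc
The longest words present in all 3 on the same strand had 6 letters, and the capitals mark the rarest of 5 such words, GCACCT. It began 95, 64 and 212 bases before the start of TIP2-1, TIP2-2 and TIP2-3 and was found on either strand in 2.14% of 27443 promoters of the same length, among them 4 aquaporin genes, the other being PIP1-2. TIP2-1 and TIP2-3 shared a longer word around it, GCACCTTCCTA, which 3 promoters held. TIP2-2 and TIP2-3 shared TTTAGCACCT, which 10 held. The words were picked after the sequences were compared and describe the stretches only.

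TIP1-1 and TIP1-2, the main tonoplast water channels of vegetative cells, parted in gbpl3. TIP1-1 (AT2G36830, gamma-TIP, chromosome 2 from 15445294 to 15446621) stood at 515, 601 and 576 CPM in Col-0 against 341, 338 and 345 in gbpl3. The gbpl3 libraries lay close together and below all wild-type libraries (log2 fold change -0.72 with SE 0.10, or 1.65-fold lower, adjusted p = 9.34e-05). TIP1-2 (AT3G26520), with 80.8% coding identity to TIP1-1, stood at 1301, 1639.8 and 1492 CPM in Col-0 against 1692, 1497 and 1566 in gbpl3. These ranges overlapped and the gene was not called (log2 fold change 0.10, SE 0.11, adjusted p = 0.63). TIP4-1 (AT2G25810), a root-expressed channel for water and urea, stood at 15.1, 16.8 and 19.4 CPM in Col-0 against 27.6, 27.5 and 19.0 in gbpl3. It was called higher (log2 fold change 0.54 with SE 0.16, or 1.45-fold, adjusted p = 0.0391), but gbpl3 replicate 3 lay among the wild-type libraries. That call did not hold without any library but gbpl3 replicate 3, with adjusted p = 0.0523 to 0.174 after the other omissions.

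The seed tonoplast genes behaved unlike each other. TIP3-1 (AT1G73190) and TIP3-2 (AT1G17810), alpha-TIP and beta-TIP, encode abundant proteins of the protein storage vacuoles of seeds. TIP3-1 stood at 0.785, 1.23 and 0.818 CPM in Col-0 against 5.78, 5.03 and 18 in gbpl3. All gbpl3 libraries were above wild type, and replicate 3 was about 3 times as high as the other gbpl3 libraries (log2 fold change 3.31 with SE 0.47, or 9.90-fold higher, adjusted p = 0.000176). Without gbpl3 replicate 3 the rise was 5.63-fold and still called (adjusted p = 0.00231). TIP3-2 stood at 12, 9 and 11 counts in Col-0 against 6, 9 and 21 in gbpl3, which overlap, and was not called (log2 fold change 0.14, SE 0.58, adjusted p = 0.925). For both genes reads may be shared with a neighbour on the opposite strand, since 13.7% of the windows of read length (150 bases) of TIP3-1 also lie in AT1G73200 and 30.6% of those of TIP3-2 in AT1G05333. AT1G73200 stood at 26.5, 26.2 and 22.6 CPM in Col-0 against 35.1, 28.8 and 36.9 in gbpl3 (adjusted p = 0.0478).

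Other seed genes were higher in the same libraries. Of 15 seed markers 7 passed the count filter and all 7 were higher, a share selected upward because genes near 0 in Col-0 pass that filter through their gbpl3 counts. By DESeq2 6 were higher, and 2 to 3 under the limma settings on FPKM. SESA2, among the 7, had 0, 11 and 0 counts in Col-0 against 5, 102 and 23 in gbpl3, which overlap. Its call did not hold by DESeq2 (adjusted p = 0.350) or without gbpl3 replicate 2 (0.281), among other settings. The list summed to 0.436 to 4.19 CPM in Col-0 against 28.0 to 262 in gbpl3. CRA1, which encodes a cruciferin, had 2, 0 and 9 counts in Col-0 against 138, 452 and 1385 in gbpl3. PER1, a seed peroxiredoxin gene, had 0, 8 and 11 and then 53, 74 and 197. OLEO1, an oleosin gene, had 1 count in each wild-type library and 10, 46 and 102 in gbpl3, and M17, a late embryogenesis gene, had 0, 2 and 1 and then 12, 49 and 137. Replicate 3 was the highest gbpl3 library for TIP3-1 and for 10 of the 15 seed markers, these 4 among them. Replicate 2 was the highest for the other 5, the cruciferin gene CRU2 and the albumin genes SESA1, SESA2, SESA3 and SESA4. The part of seed RNA in the TIP3-1 rise was not tested.

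**Figure D3:**
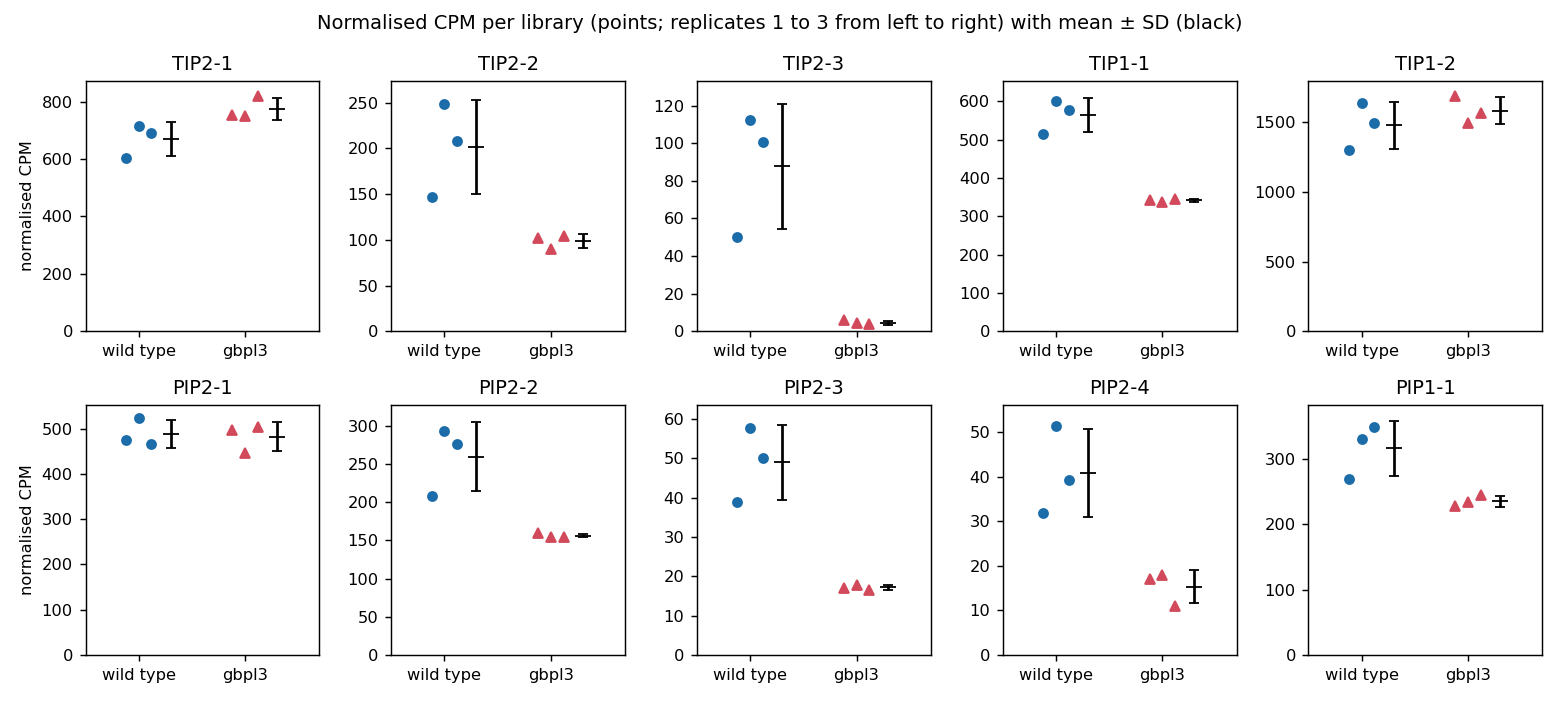
Normalised CPM (y axis, from 0) of 10 aquaporin genes in 3 wild-type and 3 gbpl3 libraries (points, replicates 1 to 3 from left to right), with the mean ± SD of each genotype in black. TIP1-2 and PIP2-1 overlap between genotypes, while TIP2-2, TIP2-3, TIP1-1, PIP2-2, PIP2-3, PIP2-4 and PIP1-1 are lower in every gbpl3 library.

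PIP2 proteins move water efficiently by themselves. Among their 8 genes 3 fell and 1 rose, beside 4.69% lower and 6.06% higher of all genes tested. PIP2-2 (AT2G37170) and PIP2-3 (AT2G37180, also named RD28 for its induction by dehydration) are neighbours on chromosome 2, from 15613368 to 15615022 and from 15617635 to 15619155, with 2612 bases between them, and are transcribed away from each other. PIP2-2, a main contributor to water uptake by roots, stood at 208, 294 and 276 CPM in Col-0 against 159, 155 and 155 in gbpl3. No gbpl3 library reached the lowest wild-type library (log2 fold change -0.73 with SE 0.12, or 1.66-fold lower, adjusted p = 0.000575). PIP2-3 stood at 38.9, 57.8 and 50.2 CPM in Col-0 against 17.1, 17.9 and 16.5 in gbpl3, again without overlap (log2 fold change -1.51 with SE 0.14, or 2.85-fold lower, adjusted p = 1.39e-06).

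PIP2-2 and PIP2-3 are the most alike pair of the family, with 94.8% coding identity and an identical run of up to 242 bases. Of the windows of read length, 7.78% of those of PIP2-2 and 8.68% of those of PIP2-3 occur in the other gene, so part of the reads cannot be assigned with certainty. Elsewhere they differ enough to be told apart, as coding bases 414 to 473 show, where the 10 differing bases are in capitals.
PIP2-2: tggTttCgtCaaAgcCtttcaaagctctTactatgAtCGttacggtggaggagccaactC
PIP2-3: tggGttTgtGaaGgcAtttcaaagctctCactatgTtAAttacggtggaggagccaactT
PIP2-2 exceeded PIP2-3 within a library by 2.41 ± 0.06 on the log2 scale in wild type and by 3.19 ± 0.06 in gbpl3 (SD, n = 3). The ratio thus moved further from equality in the mutant.

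PIP2-4 (AT5G60660, chromosome 5 from 24375368 to 24377206), a root plasma membrane channel, stood at 31.8, 51.5 and 39.4 CPM in Col-0 against 17.1, 17.9 and 11.1 in gbpl3. The ranges did not overlap (log2 fold change -1.41 with SE 0.18, or 2.66-fold lower, adjusted p = 6.85e-05). PIP2-6 (AT2G39010), known mainly from shoots and leaf veins, stood at 219.9, 277 and 237 CPM in Col-0 against 298, 298 and 344 in gbpl3. It was higher in every gbpl3 library (log2 fold change 0.36 with SE 0.11, or 1.28-fold, adjusted p = 0.0407), but the call did not hold without any library but Col-0 replicate 2 (adjusted p = 0.0563 to 0.204). The remaining PIP2 genes were not called. PIP2-1, a widely expressed water channel that is also permeable to hydrogen peroxide, stood at 475, 523 and 466 CPM in Col-0 against 497, 446 and 504 in gbpl3 (log2 fold change -0.02, SE 0.10). PIP2-7 stood at 559, 578 and 569.9 CPM in Col-0 against 519.6, 533 and 526 in gbpl3, which do not overlap, yet its log2 fold change of -0.11 (SE 0.09) did not pass the test (adjusted p = 0.51). PIP2-8 was at a log2 fold change of -0.43 (SE 0.16, adjusted p = 0.0885) and was called without Col-0 replicate 2 (-0.61, adjusted p = 0.00586). PIP2-5 was the least abundant PIP gene, at 6.25 ± 0.91 CPM in Col-0 against 6.37 ± 1.1 CPM in gbpl3.

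PIP1 proteins conduct water mainly in tetramers shared with PIP2 proteins, and 1 of their 5 genes was called, beside 10.7% of all genes tested. PIP1-1 (AT3G61430) stood at 269, 329.9 and 349 CPM in Col-0 against 228, 233 and 245 in gbpl3. The genotypes did not overlap (log2 fold change -0.43 with SE 0.11, or 1.34-fold lower, adjusted p = 0.015), although the call did not hold without gbpl3 replicate 1 (adjusted p = 0.0868), Col-0 replicate 3 (0.11) or gbpl3 replicate 3 (0.0537). PIP1-2, its closest relative at 87.6% coding identity and a channel with roles in water and carbon dioxide transport, stood at 639, 849.6 and 799.6 CPM in Col-0 against 726, 729 and 789 in gbpl3. PIP1-3 stood at 323, 429 and 366 CPM in Col-0 against 378, 333 and 393 in gbpl3. Both genes overlapped between genotypes, with log2 fold changes of -0.03 (SE 0.11) and -0.02 (SE 0.11). PIP1-4 and PIP1-5 were not called either, at -0.08 and 0.17.

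Of the NIP genes 6 were tested, 2 were higher and none was lower, also at an unadjusted p under 0.05 and by DESeq2. Beside this, 6.06% of all genes tested were higher and 4.69% lower. NIP1-1 (AT4G19030, chromosome 4 from 10421521 to 10423508), through which arsenite and antimonite can enter roots, stood at 20.4, 14.9 and 21.1 CPM in Col-0 against 39.4, 29.9 and 26.5 in gbpl3. NIP1-2 (AT4G18910, chromosome 4 from 10366044 to 10368510), linked to the transport of aluminium bound to malate, stood at 13.0, 11.0 and 14.8 CPM in Col-0 against 21.5, 19.7 and 18.8 in gbpl3. Neither overlapped between genotypes. NIP1-1 was 1.7-fold higher (log2 fold change 0.77, SE 0.16, adjusted p = 0.00527) and NIP1-2 was 1.55-fold higher (log2 fold change 0.63, SE 0.15, adjusted p = 0.0128, but 0.0734 without gbpl3 replicate 1). Under the 3 limma settings on FPKM neither was called, with adjusted p = 0.087 to 0.128 for NIP1-1 and 0.0659 to 0.0966 for NIP1-2. The pair has 84.5% coding identity and shares no window of 50 bases.

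The promoters of NIP1-1 and NIP1-2 are given because the genes rose together, at chr4:10423509-10423758 (minus) and chr4:10365794-10366043 (plus) of TAIR10.1. Capitals mark TTGAC, the core of the W-box that WRKY transcription factors bind, or its reverse complement GTCAA.
NIP1-1: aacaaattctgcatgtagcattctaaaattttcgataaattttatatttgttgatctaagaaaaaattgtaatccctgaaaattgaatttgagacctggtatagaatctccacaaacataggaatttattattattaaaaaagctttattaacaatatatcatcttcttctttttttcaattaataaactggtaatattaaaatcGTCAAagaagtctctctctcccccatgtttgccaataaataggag
NIP1-2: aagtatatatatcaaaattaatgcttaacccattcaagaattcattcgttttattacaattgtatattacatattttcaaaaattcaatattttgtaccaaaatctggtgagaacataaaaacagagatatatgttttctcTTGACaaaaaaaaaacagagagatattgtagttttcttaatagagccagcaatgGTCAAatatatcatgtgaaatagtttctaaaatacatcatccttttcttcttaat
Searched on both strands of the 250 bases, TTGAC occurred in 44.9% of 27443 promoters, in 19 of 35 aquaporin promoters, in 4 of the 5 that rose (TIP3-1, TIP4-1, NIP1-1 and NIP1-2) and in 0 of the 7 that fell. ACGTG, the core of abscisic acid response elements and G-boxes, occurred in 22.9% of all promoters and in 4 of the family, of which TIP1-1 fell and TIP3-1 rose. CCGAC, the core of the dehydration-responsive element, occurred in 12% of all promoters and in 4 of the family, of which TIP1-1 fell. None of these motifs contains another, and a match describes the letters of the window only.

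The boric acid channels were not called. NIP5-1, which takes up boric acid in roots under low boron, had a log2 fold change of 0.34 (SE 0.17, adjusted p = 0.225) between means of 14.5 ± 2.48 CPM in Col-0 against 18.2 ± 2.54 CPM in gbpl3. NIP6-1, which distributes boric acid to young shoot tissue, stood at 8.11, 9.12 and 6.95 CPM in Col-0 against 8.90, 5.03 and 7.25 in gbpl3 (log2 fold change -0.20 with SE 0.24), and 26 of its exon bases overlap AT1G80750 on the opposite strand, which was lower (log2 fold change -0.56, adjusted p = 0.00884). NIP3-1 had 13, 36 and 15 counts in Col-0 against 24, 44 and 24 in gbpl3, which overlap. NIP2-1, a lactic acid channel induced by oxygen shortage, had 16, 2 and 13 counts in Col-0 against 3, 5 and 11 in gbpl3, and 49.4% of its windows of read length also occur in AT2G08660 on the opposite strand. Neither gene was called (log2 fold change 0.49 with SE 0.43 for NIP3-1 and -0.75 with SE 0.73 for NIP2-1).

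The 4 members that did not pass the count filter are known mainly from pollen or anthers. TIP1-3 had 0, 0 and 0 counts in Col-0 against 1, 0 and 1 in gbpl3, and NIP4-1 had 0 in every library. NIP4-2, which lies 1989 bases from NIP4-1, had 8, 1 and 3 counts in Col-0 against 2, 1 and 0 in gbpl3, and NIP7-1, a boric acid channel of anthers, had 8, 0 and 4 and then 8, 5 and 7. A count of 0 over the wild-type libraries allows up to 0.0918 CPM, and over the gbpl3 libraries up to 0.0856 CPM, as counting error only. TIP5-1, another pollen channel, passed the filter with 4.01, 2.87 and 2.96 CPM in Col-0 against 1.23, 1.62 and 1.77 CPM in gbpl3. Its libraries did not overlap, but the difference was not called (log2 fold change -1.08, SE 0.39, adjusted p = 0.0825), and 91 of its exon bases overlap AT3G47450 on the opposite strand. By limma on FPKM of mean 1 or more, TIP5-1 was called lower (adjusted p = 0.0429 with a pseudocount of 1 and 0.0455 with 0.1). The pollen markers summed to 2.01 to 2.56 CPM in Col-0 against 0.696 to 2.70 CPM in gbpl3, with VGD1, a pollen tube pectinesterase gene, at 0 counts in every library.

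None of the 3 SIP genes was called, and none had an unadjusted p under 0.05 by edgeR or DESeq2. SIP1-1 stood at 72.1, 75.2 and 70.4 CPM in Col-0 against 83.6, 67.1 and 79.2 in gbpl3. SIP1-2 stood at 8.72, 6.90 and 7.87 CPM in Col-0 against 5.97, 9.05 and 6.42 in gbpl3. SIP2-1 stood at 157, 161 and 159 CPM in Col-0 against 172, 150.4 and 197 in gbpl3. All 3 overlapped between genotypes. SIP2-1 shares 147 exon bases with AT3G56940, an abundant gene on the opposite strand with 92276 counts over the 6 libraries against 11201 for SIP2-1.

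Summed over all members, aquaporin transcripts came to 6074, 7416 and 6934 CPM in Col-0 against 6519, 6146 and 6627 in gbpl3. These ranges overlap, and the ratio of gbpl3 to wild type was 0.945. PIP genes summed to 3488 ± 326 and 3251 ± 130.1 CPM, and TIP genes to 3023 ± 355 and 2841 ± 112 CPM (SD, n = 3), again with overlap. NIP genes summed to 58.9, 50.8 and 63.7 CPM in Col-0 against 92.3, 74.3 and 76.7 in gbpl3, so every gbpl3 library was above wild type. Per kilobase of exon the share of TIP transcripts in the family was 49.8% in wild type and 49.9% in gbpl3, and that of PIP transcripts 45.6% and 44.6%. PIP2 genes alone summed to 988, 1141 and 1059 CPM per kilobase in Col-0 against 941, 913 and 963 in gbpl3, which do not overlap, whereas their sums in CPM without the division by length did overlap. A sum is carried by its most abundant genes, which for the sum over all members were for the most part not called. The NIP sum differs in this. NIP1-1 and NIP1-2, both called higher, were among its most abundant genes, beside NIP5-1, which was not called. The NIP sum is therefore no separate support for these calls.

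**Figure D4:**
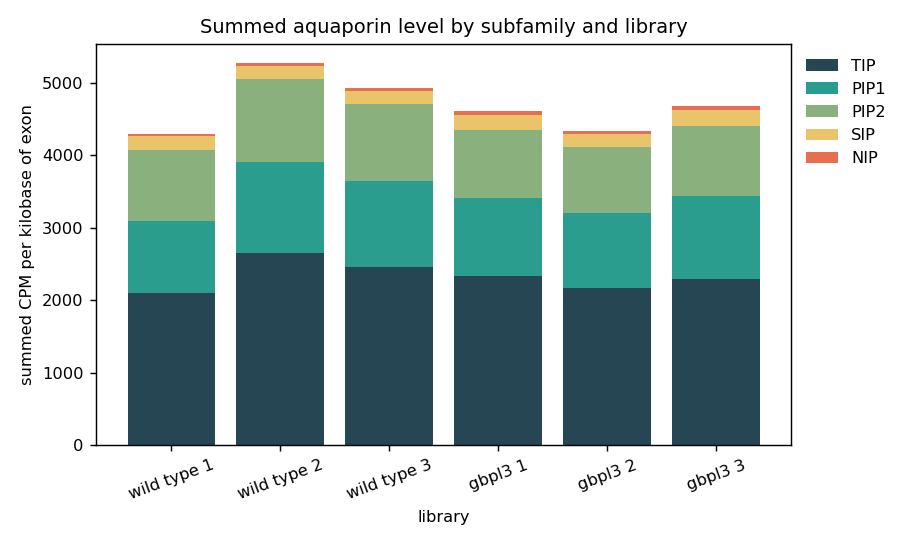
Summed CPM per kilobase of exon (y axis, from 0) of aquaporin genes in each of 6 libraries (x axis), stacked by TIP, PIP1, PIP2, SIP and NIP. Totals lie between 4299 and 5272 in wild type and between 4340 and 4673 in gbpl3, so the totals overlap, while the PIP2 layer is lower in every gbpl3 library.

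Close relatives were then compared directly. Mutual best matches by coding identity gave 12 pairs, of which 11 had both genes tested, and the log2 ratio of the pair was compared between genotypes by an exact two-sided permutation test. With 3 libraries against 3 the smallest p it can give is 0.1, and the adjusted value over 11 pairs was then 0.183, so no pair could pass. The ratio did not overlap between genotypes in 6 pairs, each with an exact permutation p = 0.1, the value that any such separation gives. Each of these pairs holds a member called above in the same libraries, so the ratios are no separate support. No share over other gene pairs was taken. Differences of the ratio were 3.19 for TIP2-2 over TIP2-3, 3.18 for TIP3-1 over TIP3-2, 0.78 for PIP2-2 over PIP2-3, -0.83 for TIP1-1 over TIP1-2, -0.40 for PIP1-1 over PIP1-2 and -0.34 for PIP2-5 over PIP2-6 on the log2 scale. The ratio of NIP1-1 to NIP1-2 overlapped between genotypes, with a difference of 0.13 (exact permutation p = 0.5).

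Wild-type libraries were not alike for these genes. Wild-type replicate 1 was the lowest wild-type library for 19 of the 31 tested members and for all 7 that fell, beside 35.4% of all genes tested and 17.4% of all genes called lower. Without that library all 7 were still called lower. Leaving out the lowest library raises the wild-type mean, however, so that omission does not test these falls. Without Col-0 replicate 3, 6 members were called lower, as PIP1-1 lost its call, and without Col-0 replicate 2, 8 were.

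Some markers of root tissue were lower in gbpl3. The list was chosen with earlier results of these data known, so its share is no independent support. Of 18 root markers 5 were lower, beside 4.69% of all genes tested, none was higher and 13 were not called, with a median log2 fold change of -0.38. The 5 were NPF7.3 and SKOR, which load nitrate and potassium into the xylem, the Casparian strip gene CASP5, the auxin carrier gene PIN2 and the peroxidase gene RCI3. NPF7.3 stood at 238, 384 and 291 CPM in Col-0 against 133, 138 and 135 in gbpl3 (2.25-fold lower, adjusted p = 1.66e-05), with replicate 1 again the lowest wild-type library. SKOR stood at 4.62, 8.21 and 7.15 CPM in Col-0 against 1.42, 1.32 and 1.3 in gbpl3. CASP5 had 25, 45 and 25 counts in Col-0 against 5, 11 and 2 in gbpl3. It passed the count filter through its Col-0 counts, where it is high. CASP5 had a log2 fold change of -2.42, and -3.06 without gbpl3 replicate 2, and its call did not hold without gbpl3 replicate 3 (adjusted p = 0.0513). RCI3 fell from 67.7 ± 8.93 to 27.6 ± 6.05 CPM (SD, n = 3). PIN2 was at a log2 fold change of -0.44 and lost its call without Col-0 replicate 3 (adjusted p = 0.1) or gbpl3 replicate 3 (0.184). Among those not called, SCR and SHR, regulators of the root ground tissue, were at -0.16 and 0.02, and HKT1, WOX5 and COBL9 were at 0.58, 0.30 and 0.20. The root list summed to 559 to 771 CPM in Col-0 against 377 to 415 in gbpl3, and no member was at 0 in every library. NPF7.3 weighs most in these sums, with means of 304 CPM in Col-0 and 135 CPM in gbpl3. Of 11 markers of green tissue 3 were higher (LHCB1.3, LHCB2.1 and LHCA1, light-harvesting genes), beside 6.06% of all genes tested, and none was lower. At an unadjusted p under 0.05, 1 was lower by edgeR and 0 by DESeq2. The green list summed to 51216 to 57333 CPM in Col-0 and to 58326 to 68437 CPM in gbpl3. Under each of the 3 limma settings on FPKM 0 green markers were higher, and with the replicate number as a block 1 was. Without Col-0 replicate 1 or 3 or gbpl3 replicate 1 or 3, 1 green marker was higher. Without gbpl3 replicate 2, 5 were higher, and without Col-0 replicate 2, 3 were higher and 1 was lower. In whole seedlings, fewer cells of a type and less RNA per cell cannot be told apart. The part of tissue makeup in the aquaporin differences was not tested.

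Genes that work beside aquaporins were read from the same fit. The list held 44 genes, of which 39 were tested, 4 were higher and 4 lower, that is 20.5% beside 10.7% of all genes tested. It was chosen with earlier results of these data known, so this share is no independent support. The ammonium transporters bring ammonium into root cells, while TIP2 channels can pass ammonia into the vacuole. Of 4 tested ammonium transporter genes 3 were lower, beside 4.69% of all genes tested. AMT1-3 stood at 35, 50.2 and 44.5 CPM in Col-0 against 21.2, 15.7 and 22.0 in gbpl3 (log2 fold change -1.14 with SE 0.15, or 2.21-fold lower, adjusted p = 9.11e-05). AMT1-1 stood at 110.1, 126 and 116 CPM in Col-0 against 74.4, 71.2 and 81.2 in gbpl3 (log2 fold change -0.63 with SE 0.10, or 1.55-fold lower, adjusted p = 0.000571). For both genes every gbpl3 library was below every wild-type library. AMT1-2 was called at -0.42 (SE 0.12, adjusted p = 0.0352), but not when any library was left out (adjusted p = 0.0578 to 0.128).

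Of 5 boron transporter genes tested, 1 was higher, 1 was lower and 3 were not called, beside 6.06% higher and 4.69% lower of all genes tested. BOR2 stood at 28.7, 38.2 and 34.9 CPM in Col-0 against 84.0, 65.7 and 75.2 in gbpl3 (log2 fold change 1.14 with SE 0.13, or 2.21-fold higher, adjusted p = 9.42e-06). BOR1, which loads boron into the xylem, stood at 31.2, 32.4 and 31.8 CPM in Col-0 against 23.5, 24.1 and 19.1 in gbpl3 (log2 fold change -0.51 with SE 0.13, or 1.43-fold lower, adjusted p = 0.0139). Log2 fold changes of the uncalled AT3G06450, BOR4 and BOR5 were -0.03 (SE 0.13), -1.13 (SE 0.52) and 0.15 (SE 0.58). The BOR1 call did not hold without Col-0 replicate 3 (adjusted p = 0.0507) or gbpl3 replicate 3 (0.0977).

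Proton pumps energise the membranes in which PIPs and TIPs sit. None of the 9 tonoplast pump genes was called, also at an unadjusted p under 0.05 by edgeR and DESeq2. AVP1, the vacuolar pyrophosphatase gene, stood at 1021, 1027 and 1035 CPM in Col-0 against 922, 947 and 945 in gbpl3 (log2 fold change -0.13, SE 0.09). Of 8 tested plasma membrane pump genes, AHA7 was higher, at 6.28, 8.54 and 8.69 CPM in Col-0 against 22.3, 21.4 and 16.6 CPM in gbpl3 (log2 fold change 1.36 with SE 0.18, or 2.57-fold, adjusted p = 8.47e-05). Among 13 genes of aquaporin trafficking, turnover and phosphorylation, 2 were higher, beside 6.06% of all genes tested. The first, TSPO, passed the count filter through its gbpl3 counts. TSPO, an abscisic acid-induced membrane protein that binds PIP2-7 and leads to its degradation, had 0, 11 and 2 counts in Col-0 against 14, 30 and 38 in gbpl3 (adjusted p = 0.0228), with adjusted p up to 0.158 when a library was left out and a log2 fold change of 2.61 that was 4.5 without Col-0 replicate 2. RMA1, a ubiquitin ligase gene, was at 0.44 (SE 0.14, adjusted p = 0.0487), and its call did not hold without Col-0 replicate 1 or 3 or gbpl3 replicate 1 or 3 (adjusted p = 0.103 to 0.264).

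**Figure D5:**
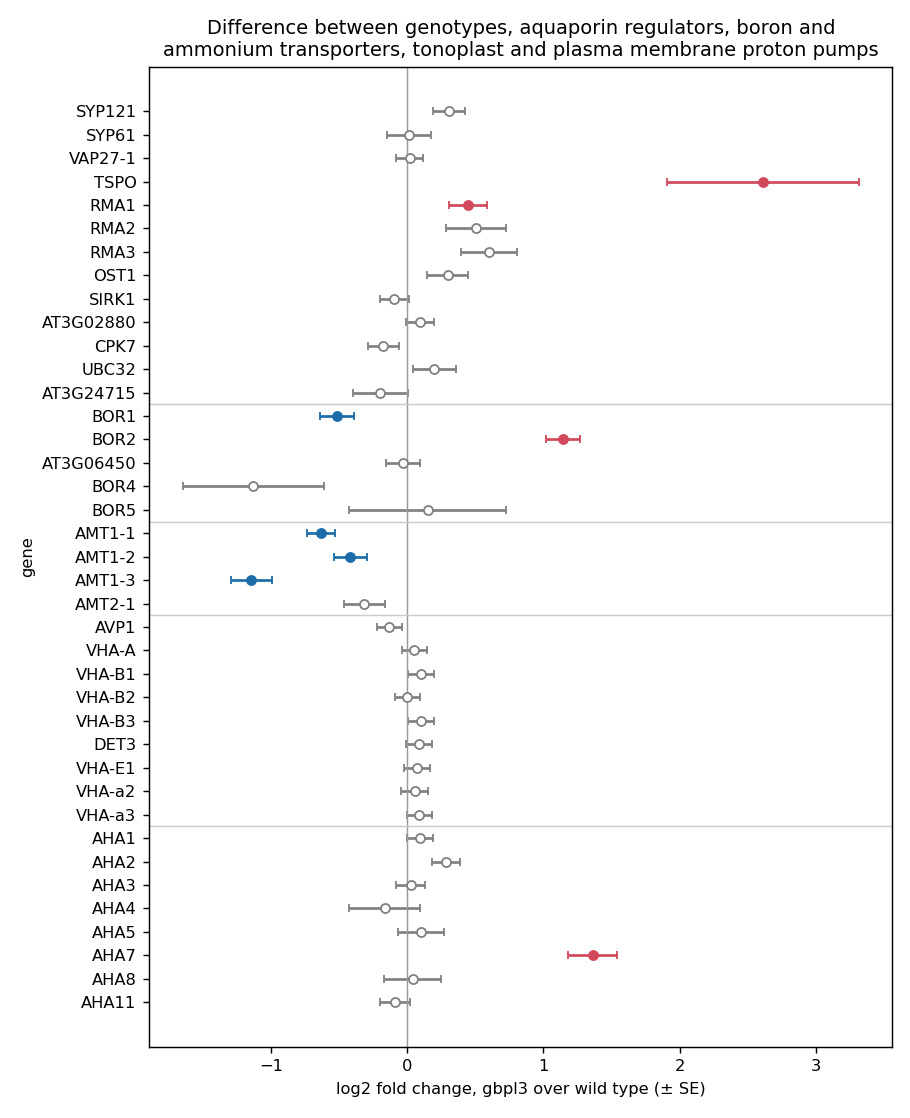
Log2 fold change of gbpl3 over wild type (x axis, points with SE as bars) for the 39 tested genes of aquaporin regulation, boron and ammonium transport and proton pumping (y axis), with filled points for an adjusted p under 0.05. The 3 called ammonium transporters lie left of 0, and the 9 tonoplast pump genes lie between -0.13 and 0.10.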

How the data were processed

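Strand-specific mRNA libraries of about 50 mg seedlings were made per the labels' protocols, and read in pairs of 150 bases per the series design. The authors deposited raw counts per gene and FPKM values. The tools named in the submitters' processing notes are HTSeq 0.6.1p1 and HISAT2 2.0.4, with build TAIR10. How counting treated strand and multi-mapped reads is not given. Table columns were matched to samples by title, and no column was left over.

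The 35 members and all gene lists were chosen with earlier results of these data known. Names not in the TAIR10.1 reference come from background knowledge, and 99.1% of identifiers were in it. Genes were kept with filterByExpr, given TMM factors and fitted in edgeR 4.0.16 under R 4.3.3 (quasi-likelihood F test, Benjamini-Hochberg over 20677 genes, threshold 0.05), a step tested on simulated data. The SE is the log2 fold change divided by the square root of F. Levels are normalised CPM, divided by the union of exons where genes are compared. The deposited FPKM use longer lengths for genes with several transcripts, up to 2.30 times that union, and served as an alternative with limma 3.58.1 on log2(FPKM + 1) or log2(FPKM + 0.1). DESeq2 1.42.0, other scalings and filters, a replicate block and each library left out were further alternatives. All 35 members are accounted for, and every library is given for members that were called, were among the 8 most abundant, did not pass the count filter or share over 10% of their windows with another gene. From other lists the called genes are named, or the 4 with the smallest adjusted p beyond 6 calls. AVP1, SCR, SHR, HKT1, WOX5, COBL9, VGD1, CRU2, the SESA genes and the boron transporters not called were named after their values were seen. No library was a duplicate, as counts of same-genotype libraries differed by a chi-square of 4.97 to 14.4 per degree of freedom. Intervals of counting error do not cover reads that are copies of a molecule. Promoters and coding sequences were read from TAIR10.1, whose nuclear chromosomes carry TAIR10 coordinates, and aligned with Biopython 1.88.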

Additional observations from a re-analysis of the deposited data

How the results depend on the processing

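Of 458 log2 fold changes of the 31 tested aquaporin genes under 15 alternatives, 424 kept their side of the threshold, 30 calls ended, 4 appeared and 0 reversed. TIP2-3, TIP2-2, TIP1-1, PIP2-2, PIP2-3 and PIP2-4 were called lower under all 15. PIP2-6 and TIP4-1 were called under 6 of 15. The number of members called higher was 1 by limma on deposited FPKM of mean 1 or more, with a pseudocount of 1 or of 0.1, and 0 with no filter (5 at an unadjusted p under 0.05, and 5 by DESeq2). With single libraries left out it was 2 to 4, and the number lower was 6 to 8. Over all genes, limma called 424, 384 and 294 higher and 390, 368 and 227 lower under those 3 settings, and single omissions gave 629 to 1443 higher and 320 to 1238 lower. Partner genes called higher were 2 under each limma setting and 2 to 5 with libraries left out, and those lower were 2 by limma with no filter and 2 to 3 with libraries left out. The cause of these changes was not tested. With the replicate number as a block, 916 genes were higher and 618 lower, with 3 members higher. Same-numbered libraries did not deviate together (r of -0.05, -0.06 and 0.04), and not every library correlated best with its own number. Such values cannot show whether same-numbered libraries shared a planting or preparation. The family's summed ratio of 0.945 ran from 0.896 to 0.989 with a library left out. TIP3-2 and NIP2-1 rest on 68 and 50 counts over the 6 libraries, and what difference such counts could show was not tested.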
